A study of Homo sapiens with 6 samples.

Results

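The gene-dense stretches of human chromosomes 17, 19 and 22 were examined for peaks of replication origin signal in U2OS cells. They comprise chromosome 17 outside 20.4 to 30.6 Mb, chromosome 19 from 1 to 19.7 Mb and from 30 to 55 Mb, and chromosome 22 from 16 Mb on, in T2T-CHM13 positions. These limits leave out the centromeres with their satellite arrays, both ends of chromosome 19 and the short arm of chromosome 22. A peak belonged to the stretches if it started inside them, whatever its width or strength. Of 945863 peaks in 4 lists, 105406 did so. The stretches span 153.1 Mb, and the rest of the 23 chromosomes compared spans 2901.7 Mb, taking the last peak on a chromosome in any list as its end.

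The peaks come from nascent-strand sequencing (NS-seq), which isolates short, newly made DNA that begins with an RNA primer at an origin. U2OS is a line derived from a human osteosarcoma. Cells were transfected with an siRNA against ORCA (siORCA, 2 lists) or with the control siRNA gl3 (2 lists), and both groups grew in the same medium with 5% fetal serum. The comparison asks how origin activity differs between them. ORCA itself is not read by a DNA assay, so the knockdown could not be checked from these lists.

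The LRWD1 gene encodes ORCA, which binds and stabilises the origin recognition complex. That complex marks the sites where the replicative helicase is loaded before S phase. In human cells origins have no fixed sequence and tend to lie close to gene starts, in GC-rich and open chromatin. Gene-dense chromosomes replicate mostly early in S phase, whereas gene-poor domains replicate late. In a bulk sample, use of a site by more cells and a larger yield of nascent DNA per cell cannot be told apart.

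The lists differed before any comparison of groups. The whole lists held 330265 peaks in siORCA 1 and 198518 in siORCA 2, against 181215 in control 1 and 235865 in control 2. No read counts came with them, so the depth behind them is unknown. Overlap did not follow the groups on the stretches. The Jaccard index, the shared covered length over the length covered by either list, was 0.358 for siORCA 2 with control 1, above the 0.349 of the siORCA pair and the 0.248 of the control pair. The labels do not say that replicates are separate cultures, so p-values measure the spread between these lists, which may be technical.

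The stretches were covered by origin peaks 2.91 times as densely as the rest of the genome. They held 35280 peaks in siORCA 1 and 24337 in siORCA 2, against 21140 in control 1 and 24649 in control 2. These were 10.7% and 12.3% of the siORCA lists and 11.7% and 10.5% of the control lists. Their share of the covered length (the sum of peak widths) was larger, at 12.8% and 14.6% in siORCA and 13.7% and 12.2% in control.

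Per Mb of sequence, peaks covered 71.8, 61.1, 52.5 and 53.4 kb of the stretches in siORCA 1, siORCA 2, control 1 and control 2. In the rest of the genome they covered 25.9, 18.8, 17.4 and 20.3 kb per Mb, in the same order of lists. The lowest list on the stretches lay above the highest list outside them. The ratio of stretches to rest was 2.77 and 3.24 in siORCA and 3.02 and 2.63 in control, with a geometric mean of 2.91 (log2 1.54 ± 0.13, SD, n = 4). All 4 lists showed this direction (two-sided exact sign-flip permutation test, p = 0.125, the smallest that 4 lists allow). Satellite arrays count toward the length of the rest but not toward that of the stretches. Chromosomes 4, 13 and 18, which are gene-poor, were covered over 14.9, 7.83, 8.97 and 12.9 kb per Mb, in the same order, outside their centromeres and the short arm of chromosome 13. Against these the log2 ratio was 2.46, higher than against the whole rest.

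**Figure D1:**
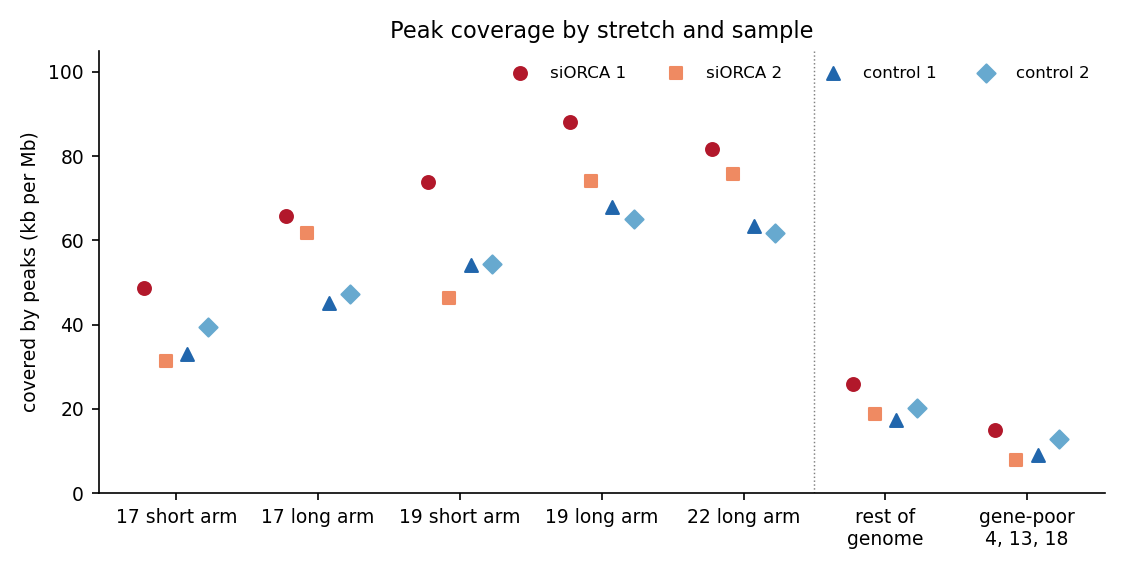
Length covered by peaks (kb per Mb, vertical axis, from 0) on each arm of the gene-dense stretches, in the rest of the genome and on gene-poor chromosomes 4, 13 and 18, with 1 point per list. Every list is higher on each arm than it is in the rest, and siORCA 2 is the lowest list on both short arms but lies above both controls on the long arms.

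Chromosomes 19, 22 and 17 took the first 3 places of 23 in every list. With the stretches standing for these chromosomes, chromosome 19 led in siORCA 1 at 82.0 kb per Mb and chromosome 22 led in the others, at 75.8 kb in siORCA 2, 63.5 kb in control 1 and 61.8 kb in control 2. Chromosome 17 took rank 3 throughout, at 61, 53.3, 41.7 and 45.1 kb per Mb. Counted whole, with satellites and the short arm of chromosome 22 included, the same 3 chromosomes still held the first 3 places in each list. Chromosome 20 had rank 4 both ways. It covered 52.6, 40.0, 34.7 and 40.7 kb per Mb.

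The arms were not alike. The long arm of chromosome 19 was the densest in siORCA 1 and both controls, at 88.1 kb per Mb in siORCA 1, 67.8 kb in control 1 and 65.0 kb in control 2. In siORCA 2 it had 74.0 kb, below the 75.8 kb of the long arm of chromosome 22. The short arm of chromosome 17 was the sparsest, at 48.8 and 31.4 kb in siORCA and 32.9 and 39.4 kb in control, which is still above the rest of the genome in every list. The short arm of chromosome 19 had 73.9 and 46.4 kb in siORCA and 54.1 and 54.4 kb in control.

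Just inside and just outside the limits the numbers of peaks per Mb were as follows. At 20.4 Mb on chromosome 17 the last Mb inside held 137 and 82 peaks in siORCA and 57 and 87 in control, fewer than the first Mb outside with 228 and 140 in siORCA and 113 and 150 in control. At 30.6 Mb the inner Mb again held fewer, 95 and 53 in siORCA and 50 and 72 in control, against 280 and 194 in siORCA and 145 and 194 in control outside. At 19.7 Mb on chromosome 19 the drop was outward, with 305 and 175 inside against 59 and 11 outside in siORCA, and 169 and 197 against 22 and 41 in control. At 30 Mb the inner Mb held 141 and 107 peaks in siORCA and 77 and 85 in control, and the outer Mb 0 peaks in all lists but control 1, which had 2. At 55 Mb there were 271 and 204 inside against 143 and 80 outside in siORCA, and 193 and 222 against 80 and 107 in control. At 1 Mb there were 334 and 188 inside against 284 and 176 outside in siORCA, and 215 and 226 against 190 and 200 in control. At 16 Mb on chromosome 22 the inner Mb held 49 and 38 peaks in siORCA and 23 and 29 in control, and the outer Mb 4 and 3 in siORCA and 4 and 9 in control.

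Neighbouring peaks were closer on the stretches. The median gap between them was 2.01 kb in siORCA 1 and 2.63 kb in siORCA 2, against 3.23 kb in control 1 and 3.02 kb in control 2. Both siORCA lists lay below both controls (means ± SD of 2 lists, 2.32 ± 0.439 kb against 3.12 ± 0.151 kb; p = 0.33 by two-sided exact permutation, the lowest that 2 against 2 allows). The rest of the genome had the same order, with median gaps of 3.66 and 4.88 kb in siORCA and 6.29 and 5.52 kb in control. Within a list the gap on the stretches was 0.536 times that of the rest (geometric mean of 4 lists, all below 1; exact sign-flip permutation p = 0.125).

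Gaps under 1 kb made up 27.3% and 20.7% of gaps on the stretches in siORCA, and 17.3% and 19.2% in control. Gaps over 50 kb were rare there, at 0.247% and 1.11% in siORCA and 1.36% and 0.730% in control. In the rest of the genome such long gaps were 2.64% and 6.61% in siORCA and 7.87% and 4.98% in control. The shortest gap in a list was 330, 414, 428 and 369 bp, which is 4.02, 4.02, 4.04 and 4.01 times the narrowest peak of that list. The settings of the peak caller are not given in the sources used here, and their part in gaps and widths was not tested.

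**Figure D2:**
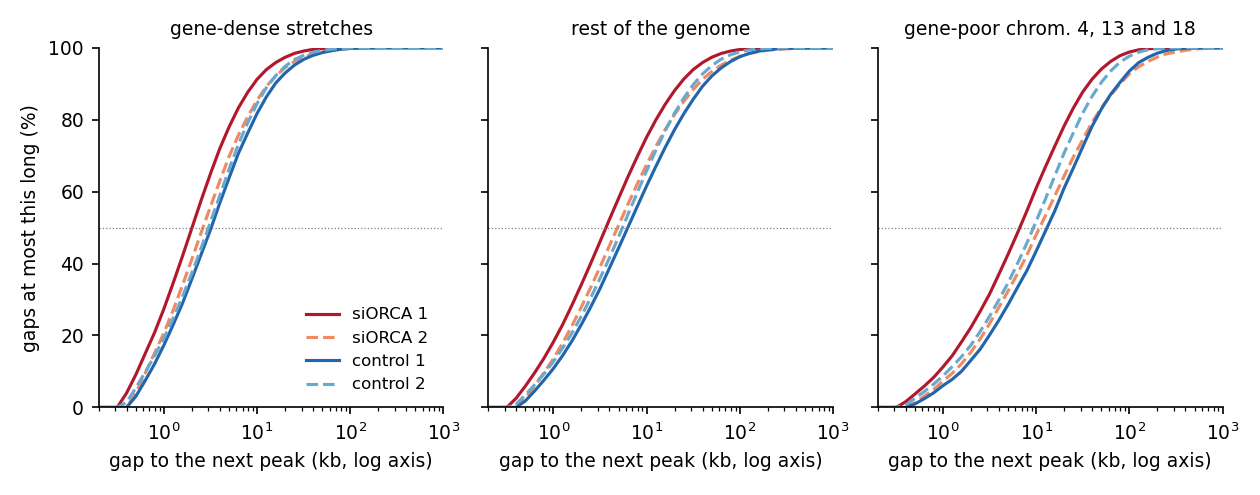
Cumulative share of gaps between neighbouring peaks (%, vertical axis) against gap length (kb, log axis) for the gene-dense stretches, the rest of the genome and the gene-poor chromosomes, with 1 line per list. The line for siORCA 1 lies furthest to the left in all 3 panels, and the dotted line at 50% crosses the stretches' lines between 2.01 and 3.23 kb.

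A cluster was taken as at least 5 peaks of a list with every gap at most 5 kb. Of the peaks on the stretches, 70.9% and 57.6% lay in clusters in siORCA 1 and siORCA 2, against 47.3% in control 1 and 50.7% in control 2. The groups did not overlap (means ± SD of 2 lists, 64.3 ± 9.40% against 49 ± 2.42%; p = 0.33 by exact permutation, the lowest possible). In the rest of the genome the shares were 41.2% and 32.9% in siORCA and 24.9% and 26.4% in control. Clusters took up 31.4% and 19.4% of the stretches' length in siORCA, and 14.1% and 17.2% in control. The largest cluster of a list held 113 and 67 peaks in siORCA and 45 and 53 in control.

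Longer lists pack more peaks into the same length, so the lists were also cut from the weakest peak down to the covered length of the shortest. The share in clusters was then 49.8% and 52.4% in siORCA and 47.3% and 43.6% in control, and the median gap 3.03 and 2.94 kb in siORCA and 3.23 and 3.45 kb in control. Both measures kept the groups apart, with a difference in clustering of 5.68 percentage points in place of 15.3. The cut did not equalise the number of peaks on the stretches, which was 22446 and 21885 in siORCA and 21140 and 21111 in control. The part of these numbers in gaps and clustering was not tested. Both measures also kept the groups apart in the rest of the genome. There 26.6% and 29.3% of peaks lay in clusters in siORCA, and 24.9% and 22.1% in control. Its median gap was 5.98 and 5.52 kb in siORCA and 6.29 and 6.47 kb in control. Over the 6 single values compared between the groups (number of peaks, share of covered length, width, gap, clustering and fold), every p adjusted by Benjamini-Hochberg from these exact permutation tests was 0.667.

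Peaks on the stretches were wider. Their median width was 197 bp in siORCA 1 and 260 bp in siORCA 2, against 262 bp in control 1 and 220 bp in control 2. In the rest of the genome it was 164 and 206 bp in siORCA and 212 and 186 bp in control, so the ratio of stretches to rest lay between 1.18 and 1.26 in each list. The groups overlapped on the stretches (means ± SD of 2 lists, 228.5 ± 44.5 bp against 241 ± 29.7 bp; p = 0.667 by exact permutation). Widths moved with the narrowest peak a list could hold, which was 82 and 103 bp in siORCA and 106 and 92 bp in control. The order of the 4 lists is the same in both measures, and its part in the widths was not tested.

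Peaks of at least 1 kb were 1.84 times as common on the stretches as in the rest (geometric mean of 4 lists; exact sign-flip permutation p = 0.125). Such peaks made up 3.6% and 5.80% of siORCA peaks and 5.51% and 3.85% of control peaks there. In the rest they made up 1.91% and 3.17% in siORCA and 3.00% and 2.13% in control. The widest single peak on the stretches was 5397 bp, in siORCA 1.

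**Figure D3:**
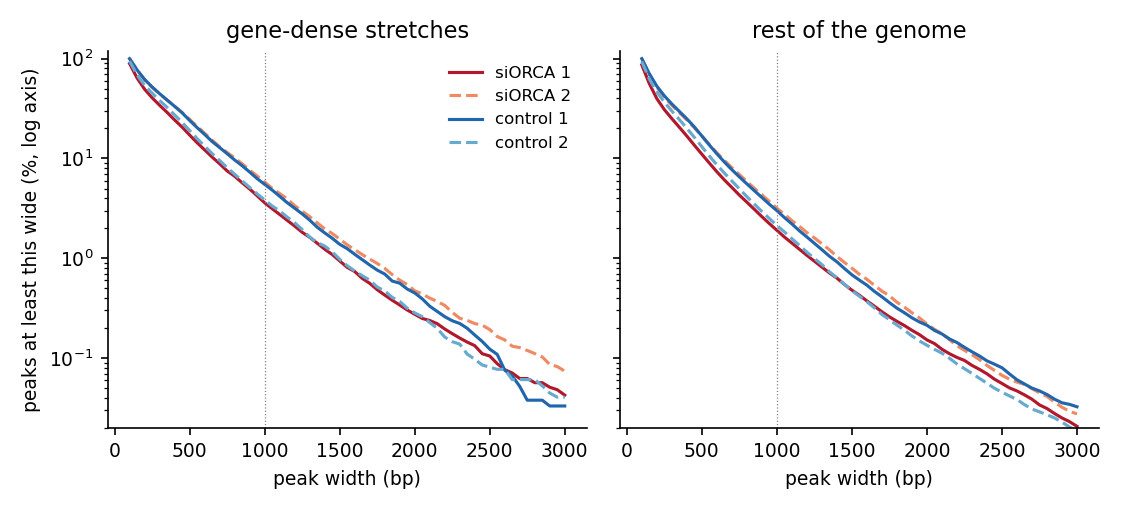
Share of peaks at least as wide as the value on the horizontal axis (bp), on a log vertical axis (%), for the gene-dense stretches and the rest of the genome, with 1 line per list and a dotted line at 1 kb. At 1 kb the lines lie between 3.6% and 5.80% on the stretches, and between 1.91% and 3.17% in the rest, with siORCA 2 and control 1 highest in both.

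The authors' fold enrichment of a peak over its background was slightly higher on the stretches than elsewhere. Its median was 4.77 and 4.33 in siORCA and 4.0 and 4.09 in control, which is 1.03 to 1.06 times that of the rest of the same list. Both siORCA medians were above both control medians (means ± SD of 2 lists, 4.55 ± 0.315 against 4.04 ± 0.0639; p = 0.33 by exact permutation, the lowest possible). With only the stricter peaks (a −log10 q of 3 or more) the groups overlapped, at medians of 5.73 and 5.09 in siORCA and 5.09 and 5.10 in control. Of the 1000 strongest peaks of a list, 157 and 183 lay on the stretches in siORCA and 167 and 166 in control. These shares, 15.7% to 18.3%, are above the stretches' share of all peaks in each list.

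Some single sites were strong in all 4 lists. Regions were made by merging the peaks of all lists where they touched or overlapped, and for each chromosome the 2 with the highest lowest fold over the lists were taken. On chromosome 19 a region from 50243387 to 50244493 reached folds of 230, 106, 109 and 87.5 in siORCA 1, siORCA 2, control 1 and control 2. It was the strongest site of the stretches in both siORCA lists, and it ranked 4 and 2 in control 1 and control 2. Its neighbour in rank, from 48756385 to 48757049, had folds of 178, 103, 115 and 68.9 in the same order.

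On chromosome 22 a region from 36001266 to 36003543 had folds of 88.0 and 77.9 in siORCA and 133 and 85.1 in control. A narrower one from 48588293 to 48588812 had 57.3 and 47.7 in siORCA and 40.1 and 52.7 in control. On chromosome 17 both sites lay near the end of the long arm. The region from 83308997 to 83310543 had folds of 53.5 and 69.5 in siORCA and 67.2 and 46.4 in control, and the one from 83281027 to 83281731 had 37.3 and 46.0 in siORCA and 44.2 and 38.8 in control. These sites were picked for their fold. As the depth of the lists is unknown, the folds cannot show whether a site changed between groups. No gene annotation of this build was used, so none of the positions carries a gene name.

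In windows of 1 Mb the stretches filled a large part of the dense end of the genome. Of 151 windows wholly inside them, 78 (51.7%) were among the densest 313 of 3132 by mean share of covered length. They made up 24.9% of those densest windows but 4.82% of all windows. By chromosome these were 29 of 73 windows on chromosome 17, 26 of 43 on chromosome 19 and 23 of 35 on chromosome 22. The median window inside the stretches had 67.5 and 56.1 kb covered in siORCA and 49.5 and 53.7 kb in control. Over all windows the medians were 16.6 and 9.38 kb in siORCA and 10.0 and 13.9 kb in control.

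The densest window lay on chromosome 19 from 52 to 53 Mb, with 163 and 147 kb covered in siORCA and 142 and 116 kb in control. It ranked 7 in the genome by mean share. Next came chromosome 17 from 82 to 83 Mb, with 166 and 145 kb in siORCA and 129 and 128 kb in control. Chromosome 22 from 37 to 38 Mb had 156 and 143 kb in siORCA and 113 and 117 kb in control. Chromosome 17 from 80 to 81 Mb had 153 and 154 kb in siORCA and 106 and 113 kb in control, and chromosome 19 from 53 to 54 Mb had 139 and 131 kb in siORCA and 116 and 108 kb in control. All 5 were among the 10 densest windows of the stretches in each list. In all 5 the siORCA lists covered more bases than the controls, before any allowance for list length.

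Sparse windows also occurred inside the stretches, and the 3 sparsest were all on chromosome 17. From 54 to 55 Mb peaks covered 6.60 and 3.65 kb in siORCA and 3.17 and 7.05 kb in control. From 53 to 54 Mb they covered 5.72 and 3.95 kb in siORCA and 6.80 and 9.11 kb in control. From 13 to 14 Mb they covered 9.77 and 4.13 kb in siORCA and 5.40 and 11.9 kb in control. In the windows from 54 and from 13 Mb, siORCA 2 and control 1 were low and siORCA 1 and control 2 high, which crosses the groups.

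Dense and sparse windows came in runs, described here after the values were seen. From 77 to 83 Mb on chromosome 17, 6 windows in a row belonged to the densest 37 of the 151. They held 0.876% and 1.13% of the covered length of the siORCA lists, and 0.929% and 0.805% of the control lists. From 9 to 17 Mb on the short arm, 8 windows in a row belonged to the sparsest 37, with 0.220% and 0.137% in siORCA and 0.187% and 0.259% in control. The groups overlapped in both. Of the other 4 runs of at least 4 such windows, the dense one on chromosome 19 from 51 to 55 Mb held 0.623% and 0.751% in siORCA and 0.775% and 0.611% in control. The 3 sparse ones lay on the long arm of chromosome 17. From 52 to 58 Mb the shares were 0.116% and 0.117% in siORCA and 0.121% and 0.165% in control, with both siORCA lists lower. From 60 to 64 Mb they were 0.136% and 0.190% in siORCA and 0.143% and 0.111% in control, and from 68 to 73 Mb 0.112% and 0.123% in siORCA and 0.0963% and 0.122% in control. No list was the highest or the lowest in all 6 runs.

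Across the 151 windows the lists ranked windows alike. Pearson correlations of log2 covered length between pairs of lists ran from 0.916 (siORCA 2 with control 2) to 0.982 (siORCA 1 with control 1), as a description over windows that share neighbours and base composition.

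The longest stretch without a peak in any list ran from 16542533 to 16677662 on chromosome 22, 135 kb. The next were 110 kb on chromosome 19 from 50846976 to 50956691 and 101 kb on chromosome 22 from 16831139 to 16931996. Only 16 gaps in the pooled lists exceeded 50 kb, 1218 kb in all out of 153.1 Mb. The median gap in the pooled lists was 1.39 kb.

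Sites on the stretches were found again in other lists more often than elsewhere. The 4 lists merged into 50261 regions on the stretches, of 535576 in the genome. All 4 lists held 9064 of them (18%), against 9.92% of regions in the rest and 5.45% on chromosomes 4, 13 and 18. Regions of a single list were 49.3% on the stretches, against 61.2% in the rest and 70.6% on the gene-poor chromosomes. Denser lists meet more often, and that part of the difference was not tested.

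**Figure D4:**
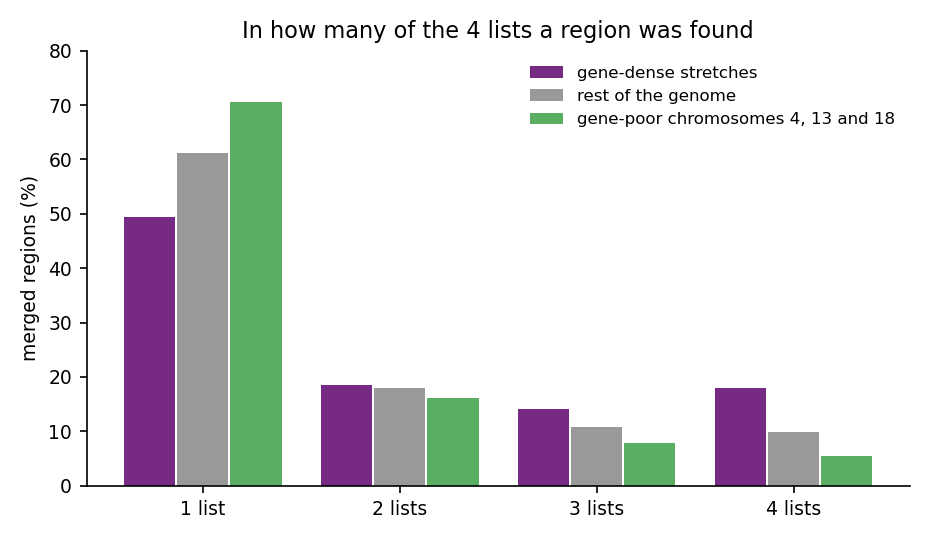
Share of merged regions (%, vertical axis, from 0) found in 1, 2, 3 or all 4 lists, for the gene-dense stretches, the rest of the genome and gene-poor chromosomes 4, 13 and 18. The stretches have the lowest bar at 1 list (49.3%) and the highest at 4 lists (18%).

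Over the 6 pairs of lists the Jaccard index was 0.293 ± 0.0502 on the stretches and 0.221 ± 0.0450 in the rest (SD over pairs, which share lists). It was higher on the stretches in each pair. It ran from 0.239 (siORCA 1 with control 2) to 0.358 (siORCA 2 with control 1). The mean within groups, 0.299, and between groups, 0.290, differed by less than the SD over pairs. By arm the mean was lowest on the short arms, 0.229 on chromosome 17 and 0.246 on chromosome 19. It was 0.296 on the long arm of chromosome 17, 0.321 on that of chromosome 19 and 0.311 on that of chromosome 22.

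Strong and wide peaks were shared most. On the stretches, 88.3% and 98.9% of the strongest 25% of peaks by fold overlapped another list in siORCA 1 and siORCA 2, against 98.0% in control 1 and 91.4% in control 2. Of the weakest 25%, 46.7% and 71.3% did so in siORCA and 65.6% and 54.2% in control. Of peaks 1 kb or wider, 97.8% and 99.8% overlapped another list in siORCA and 99.6% and 97.4% in control.

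Regions found in all 4 lists had a median width of 751 bp on the stretches and 655 bp in the rest, against 146 and 143 bp for regions of 1 list. They lay 5.76 kb apart (median) on the stretches and 11.2 kb apart in the rest. There were 308 clusters of at least 5 such regions, holding 23% of them, against 12.7% in the rest. The largest, with 20 regions over 59.6 kb, lay on chromosome 17 from 82338108 to 82397690, inside the window of rank 2. It held 41 and 31 peaks in siORCA and 31 and 26 in control. On chromosome 19 the largest ran from 44714214 to 44760374 and on chromosome 22 from 37763320 to 37813866, with 17 regions each. The one on chromosome 22 lies in the window of rank 3.

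With siORCA set against control, peaks covered 1.25 times as much of the stretches, and both siORCA lists lay above both controls (means ± SD of 2 lists, 66.4 ± 7.60 against 52.9 ± 0.594 kb per Mb; p = 0.33 by exact permutation, the lowest possible). In the rest of the genome the ratio was 1.19 and the groups overlapped. The difference between stretches and rest was tested itself, as the within-list log2 ratio compared between groups. It was 1.58 ± 0.16 in siORCA and 1.5 ± 0.14 in control (means ± SD of 2 lists), a difference of 0.09 that was within the spread (p = 0.667 by exact permutation). At the same covered length the difference was 0.15 and the groups did not overlap (p = 0.33 by exact permutation, the lowest possible), whereas with the stricter peaks it was −0.06 and they overlapped. With 1 list left out it was 0.20 without siORCA 1, −0.02 without siORCA 2, 0.19 without control 1 and −0.01 without control 2. The direction of a difference in response between stretches and rest was thus not settled by these lists.

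At the same covered length in all lists, the stretches had 53.4 and 56.9 kb per Mb in siORCA and 52.5 and 48.2 kb in control, which do not overlap (ratio 1.10; exact permutation p = 0.33, the smallest possible). As the totals were set equal, the rest was then lower in siORCA by construction, at 17.3 and 17.2 kb per Mb against 17.4 and 17.6 kb in control. With the lists restricted to a −log10 q of 3 or more, the stretches had 57.2 and 42.7 kb per Mb in siORCA and 27.3 and 30.61 kb in control, a ratio of 1.73, and the rest a ratio of 1.80. The share of all covered length on the stretches was then lower in siORCA, by 0.528 percentage points, whereas in the full lists it was higher by 0.718 points, and the groups overlapped in the full lists (exact permutation p = 0.667 for each).

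By arm, in the full lists, both siORCA lists lay above both controls on the 3 long arms, and the groups overlapped on both short arms. This contrast changed with the peaks admitted. On the long arm of chromosome 17 peaks covered 65.7 and 61.7 kb per Mb in siORCA, against 45.1 and 47.3 kb in control, a ratio of 1.38. On the long arm of chromosome 19 they covered 88.1 and 74.0 kb against 67.8 and 65.0 kb (ratio 1.22), and on that of chromosome 22 81.7 and 75.8 kb against 63.5 and 61.8 kb (ratio 1.26). For these 3 arms the exact permutation p was 0.33 each, the smallest possible, and 0.556 adjusted over 5 arms. On the short arms siORCA 2 had the lowest value of all lists and siORCA 1 the highest. At the same covered length only the long arm of chromosome 17 kept the groups apart, with 48.0 and 56.5 kb per Mb in siORCA and 45.1 and 42.0 kb in control (ratio 1.20). The groups then overlapped on the long arms of chromosome 19 (67.7 and 69.8 kb in siORCA and 67.8 and 59.7 kb in control, ratio 1.08) and chromosome 22 (61.5 and 70.5 kb in siORCA and 63.5 and 56.1 kb in control, ratio 1.10). With the stricter peaks both siORCA lists lay above both controls on all 5 arms, with ratios of 1.75 and 1.69 on the short arms of chromosomes 17 and 19 and 1.66 to 1.84 on the long arms. The rest of the genome separated the same way, at 18.9 and 11.9 kb in siORCA and 7.15 and 9.91 kb in control. Its ratio was 1.80, so the arm ratios are near that of the rest. On the short arms siORCA 2 was close to control 2, with 21.9 against 21.1 kb on chromosome 17 and 31.4 against 31.0 kb on chromosome 19.

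The proportion of long to short arm was also compared within each list. The long arm of chromosome 17 was covered 1.35 and 1.96 times as densely as its short arm in siORCA 1 and siORCA 2, against 1.37 in control 1 and 1.20 in control 2. On chromosome 19 the proportion was 1.19 and 1.60 in siORCA and 1.25 and 1.19 in control. On both chromosomes siORCA 2 had the highest proportion of the 4 lists, and the groups overlapped (exact permutation p = 0.667 and 1.0). At the same covered length the proportions were 1.36 and 1.89 in siORCA and 1.37 and 1.19 in control on chromosome 17, and 1.24 and 1.57 in siORCA and 1.25 and 1.19 in control on chromosome 19. With the stricter peaks control 1 was nearly as high as siORCA 2. The proportions were then 1.35 and 1.90 in siORCA and 1.85 and 1.24 in control on chromosome 17, and 1.22 and 1.77 in siORCA and 1.66 and 1.27 in control on chromosome 19.

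Window by window, limma compared log2 shares of covered length (with 1000 bp added to each window) over all 2464 windows of the genome in which the lists covered 5 kb or more on average. None of the 151 windows of the stretches passed (0 at an adjusted p of at most 0.05), where 0.0812% of all windows passed as higher and 0% as lower in siORCA. At an unadjusted p under 0.05 in limma there were 5, or 3.31%, beside 3.08% of all windows. Both siORCA shares lay above both control shares in 21 windows (13.9%) and below in 19 (12.6%). Over all windows these were 10.8% and 19.9%. These shares changed with the peaks admitted. At the same covered length siORCA lay above in 49 of 149 windows (32.9%, beside 14.3% of all windows) and below in 12 (8.05%, beside 26.8%). With the stricter peaks siORCA lay above in 4 of 145 (2.76%, beside 12%) and below in 21 (14.5%, beside 13.2%).

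The median log2 difference (siORCA over control) was 0.05 on the stretches, with 91 of 151 windows higher (60.3%). Over all windows tested it was −0.09, with 38.3% higher. It differed by arm. On the long arm of chromosome 17 it was 0.24, with 45 of 53 windows higher (84.9%). Both siORCA shares lay above both controls in 16 of its windows (30.2%, beside 10.8% of all windows). On the short arms the median was −0.20 (chromosome 17, 2 of 20 or 10% higher) and −0.17 (chromosome 19, 3 of 18 or 16.7% higher). The long arms of chromosomes 19 and 22 had 0.03 and 0.05. These medians and that of the stretches changed sign in some settings. With the stricter peaks these long arms had −0.09 and −0.12 and the stretches −0.07, beside −0.03 over all windows. Without siORCA 2 they had −0.06, −0.07 and −0.02 in this order, beside −0.01. Without control 2 they had −0.11, −0.09 and −0.03, beside −0.06. All were above 0 at the same covered length, with median centring, and without siORCA 1 or control 1.

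The arm medians moved with the list left out, siORCA or control. With 1 list left out, those of both short arms and of the long arm of chromosome 17 were smallest in size without siORCA 2. Without siORCA 2 the median on the long arm of chromosome 17 was 0.05, beside −0.01 over all windows. There 33 of 53 windows were higher (62.3%, beside 47.9% of all windows). On the short arms of chromosomes 17 and 19 the medians were then −0.06 and −0.01. Without siORCA 1 the median was 0.37 on the long arm of chromosome 17, and −0.38 and −0.30 on the short arms of chromosomes 17 and 19. In the same order the medians were 0.27, −0.24 and −0.05 without control 1, and 0.17, −0.15 and −0.23 without control 2. At the same covered length the long arm of chromosome 17 had 0.24, with 44 of 51 windows higher (86.3%, beside 39.0% of all windows). With the stricter peaks it had 0.06, with 31 of 48 higher (64.6%, beside 45.9%). Median centring of the windows gave it 0.33.

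**Figure D5:**
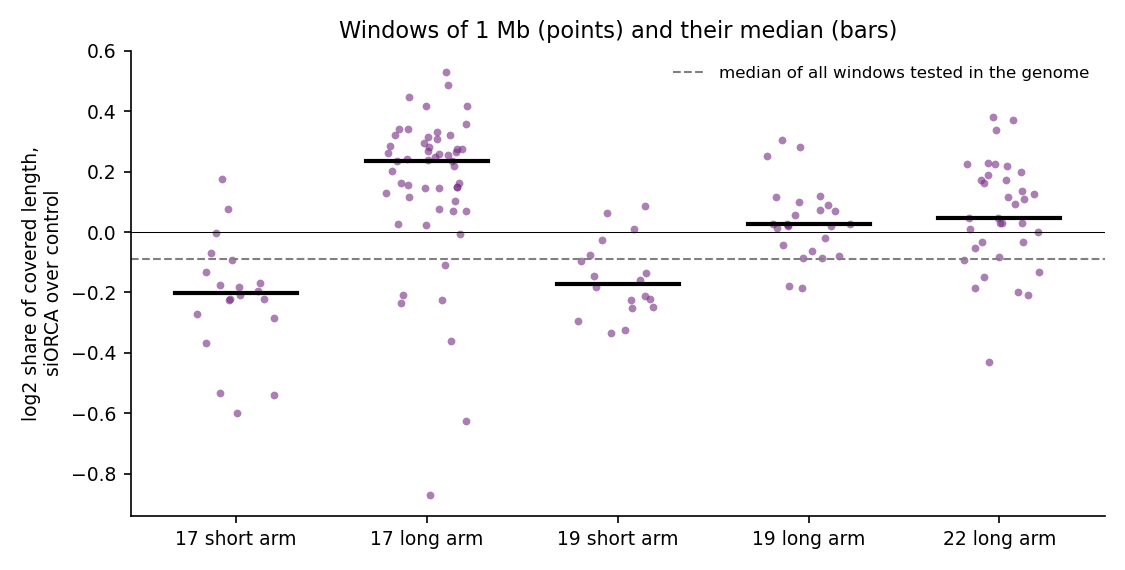
Difference in share of covered length (log2, siORCA over control, vertical axis) for each of the 151 windows of 1 Mb (points), by arm, with the median of each arm (bars) and of all windows tested (dashed line, −0.09). Most windows on the long arm of chromosome 17 lie above 0 and most on both short arms below it, and none passed the test across the genome.

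The windows with the smallest p, none past the threshold, were the following. Higher in siORCA was chromosome 17 from 59 to 60 Mb, with 50.1 and 55.1 kb covered in siORCA and 34.0 and 28.7 kb in control. Its log2 difference in share was 0.49 with an SE of 0.21 (limma, adjusted p = 0.930), and the shares overlapped. From 35 to 36 Mb, 78.3 and 79.3 kb were covered in siORCA and 50.1 and 46.8 kb in control (log2 0.45), and from 73 to 74 Mb 64.8 and 73.7 kb in siORCA and 39.6 and 47.3 kb in control (log2 0.42). The shares of these 2 did not overlap. Without siORCA 2 the 3 differences were 0.20, 0.22 and 0.11, and without siORCA 1 they were 0.77, 0.67 and 0.72.

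Lower in siORCA was chromosome 17 from 11 to 12 Mb, with 20.6 and 10.8 kb in siORCA and 13.3 and 28.2 kb in control (log2 −0.60, SE 0.28). Chromosome 22 from 34 to 35 Mb had 28.1 and 16 kb in siORCA and 18 and 32.6 kb in control (log2 −0.43). Only the sparse window from 53 to 54 Mb on chromosome 17 had both siORCA shares below both controls among these 3 (log2 −0.87, SE 0.50). The adjusted p was 0.930 in limma for all 6.

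Site by site, more regions were gained than lost. Regions in both siORCA lists and no control list numbered 3095 (6.16% of regions on the stretches, beside 5.44% in the genome). Regions in both control lists and no siORCA list numbered 763 (1.52%, beside 1.67%). The ratio of gained to lost was 4.06 on the stretches and 3.18 in the rest, with no test of that difference. Other pairs had regions of their own too. Those in siORCA 1 and control 2 only numbered 2018 (4.02%, beside 4.34% in the rest). Those in siORCA 2 and control 1 only numbered 1024 (2.04%, beside 1.85%). For siORCA 1 with control 1 there were 1469 (2.92%, beside 2.83%), and for siORCA 2 with control 2 there were 926 (1.84%, beside 1.94%). All of these shares are near those of the rest.

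The long arm of chromosome 17 had 1200 gained regions (7.39%, beside 5.44% in the genome) and 194 lost regions (1.19%, beside 1.67%), a ratio of 6.19. The ratios were 2.18 on the short arm of chromosome 17, 2.47 and 3.48 on the short and long arms of chromosome 19, and 4.5 on chromosome 22. The ratio depended on the peaks admitted. For the stretches together it was 1.83 with the lists at the same covered length and 16.4 with the stricter peaks. Leaving out control 1, control 2 or siORCA 2, which makes 1 list stand for its group, gave 0.812, 1.3 and 9.05 on the stretches. The rest of the genome then gave 0.482, 0.843 and 10.4.

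Gained regions were narrower than regions in all 4 lists and wider than those in 1 list. Their median width was 282 bp, and that of lost regions 336 bp, against 751 bp in all 4 lists and 146 bp in 1 list. In the rest of the genome these widths were 251, 308, 655 and 143 bp. A merged region spans the peaks of every list that holds it, so more lists can only widen it. That part of the difference was not tested. On the stretches, gained regions lay a median of 4.18 kb from the nearest constant site (a region found in all 4 lists), and lost regions lay 6.08 kb away. In the rest of the genome these distances were 11.9 kb and 19.8 kb, where constant sites are sparser. Of gained regions on the stretches, 54.9% were within 5 kb of a constant site, against 45% of lost ones and 44.4% of regions in 1 list.

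The widest gained region ran from 50978867 to 50980586 on chromosome 22, with 1720 bp under peaks in siORCA 1 and 322 bp in siORCA 2, at folds of 4.05 and 4.91. The next had 1693 and 318 bp (chromosome 22, 20502941 to 20504633), and one on chromosome 19 from 50505667 to 50507339 had 1521 and 468 bp. In all 3 siORCA 1 gave most of the width. The widest lost region (chromosome 19, 7639814 to 7641206) had 269 bp under peaks in control 1 and 1348 bp in control 2. The other 2, from 43993167 to 43994550 and from 17937420 to 17938693 on chromosome 22, had 1384 and 106 bp and 257 and 1162 bp in the controls. In each of these 6, 1 list of the group covered over 3 times as much as the other.

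Regions found in all 4 lists were covered over a median of 435 and 462 bp in siORCA and 404 and 360 bp in control, so both siORCA lists lay above both controls. The rest of the genome separated the same way, at 358 and 373 bp in siORCA and 338 and 305 bp in control. On the stretches both siORCA lists covered more than both controls in 2395 of 9064 (26.4%, beside 24.7% of such regions in the genome). They covered less in 918 (10.1%, beside 11.4%). These shares are near the background. On the long arm of chromosome 17 they were 29.8% and 8.76%, and on the short arm of chromosome 19 20.5% and 13.5%.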

How the data were processed

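NS-seq peaks of U2OS cells were analysed for 2 siORCA and 2 control samples. Genomic DNA samples of the series were not analysed here. Per the submitters' processing notes, the tools were MACS2, BWA and SAMtools, with T2T-CHM13 as the build. The background, settings and version of the caller are not given in the sources used here. For each sample the authors deposited 1 broad peak list, with a position, a score, a fold enrichment (a linear ratio over background) and a −log10 p and −log10 q per peak. The folds are the authors' own and served as descriptions and ranks inside a list. Their medians were also compared between the groups, which describes lists of unknown depth. The lists hold no counts, so depth is unknown and no counting interval was given.

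Peaks starting on the stretches were taken, and gaps, widths, clusters, merged regions (overlap of at least 1 bp) and covered length per 1 Mb window were computed with scipy 1.17.1, pandas 2.3.3 and numpy 2.4.6 in Python 3.11.15. Windows were tested with limma 3.58.1 in R 4.3.3 (lmFit, eBayes with trend, Benjamini-Hochberg over all windows), which was first tested on simulated data. Single values were compared by two-sided exact permutation tests. Log2 values of windows include 1000 bp added to each, which understates changes of sparse windows.

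The named items followed a rule. For windows it took the 5 densest and 3 sparsest and those past the threshold, or else the 3 of smallest p in each direction. For regions it took, per chromosome, the 2 with the highest lowest fold and the largest cluster, then the 3 widest gained, the 3 widest lost and the 3 longest gaps. The stretches, lists and rule were chosen with earlier results of these data known. The labels share replicate numbers between groups but state no pairing, so none was assumed. Genes, annotation and sequence were not examined, as no genome of this build was used. The alternatives are given in the closing section.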

Additional observations from a re-analysis of the deposited data

How the results depend on the processing

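Of 93 alternative values, 76 stayed the same, 11 reversed direction and 6 moved. A moved value did not reverse but changed in size beyond a set limit. That limit was used only for windows called, the ratio of gained to lost regions and the Jaccard difference. The other results were judged by direction alone. Except for 1 in the ratio of gained to lost regions, the reversals lay in comparisons of siORCA with control whose groups overlapped. The share of covered length on the stretches (siORCA minus control, 0.718 percentage points) was −0.528 with the stricter peaks (−log10 q from 3 up), and ran from −0.204 to 1.64 with each sample left out. The median width (−12.5 bp) was 3.5 bp in lists of equal covered length and 0.75 bp with peaks within 1 kb joined, and ran from −44.0 to 19 bp with each sample left out. The log2 ratio of stretches to rest (siORCA minus control, 0.09) was 0.152 at the same covered length, where the groups no longer overlapped, and −0.0586 with the stricter peaks, and ran from −0.0239 to 0.200. The ratio of gained to lost regions (4.06) was 16.4 with the stricter peaks and 1.83 at the same covered length, and ran from 0.812 to 9.05. In the rest of the genome that ratio was 13.1 and 1.60 in these settings, and ran from 0.482 to 10.4. The Jaccard index on the stretches minus that of the rest (0.0717) was 0.0576 with the stricter peaks. For these the cause was not tested, except that a group of 1 list makes gained and lost regions those of that list. Windows called inside the stretches numbered 0 to 3 with each sample left out. The 3 came without siORCA 1, where 75 windows passed over the genome.

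Samples of the same number deviated in opposite directions (r = −0.458 over 2464 windows). With the replicate number as a block 0 windows of the stretches passed in limma (2 at an unadjusted p under 0.05). The crossed block, chosen after seeing the data, also gave 0 (30 at an unadjusted p under 0.05). Higher coverage of the stretches than of the rest, shorter gaps, more clustering, a higher median fold and more peaks in siORCA kept their direction in all alternatives run for them. For the median fold the groups overlapped with the stricter peaks. The cut to the same covered length cannot test the fold, as it removes weak peaks from the longer lists. It took siORCA 1 from 4.77 to 6.02 and left control 1 uncut. For the number of peaks the groups overlapped in the full lists, with 24337 in siORCA 2 and 24649 in control 2. They did not overlap with the stricter peaks or at the same covered length. The coverage ratio ran from log2 1.29 (chromosome 17 alone) to 2.46 (against gene-poor chromosomes). The chief limits are 2 lists per group, unknown depth, and chromosome ends taken from the last peak.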
